A study of Mus musculus with 8 samples.

Results

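Chemokine ligands are small secreted proteins that direct the movement of leucocytes, and their genes were followed here in islets isolated from 4 β-CB1R+/+ and 3 β-CB1R−/− mice. The members are all genes whose current symbol begins with Ccl, Cxcl, Cx3cl or Xcl followed by a number. The reference gene table holds 44 such symbols, 34 of them had a probe on the array, and for 24 of the 34 the signal stood well above background in 3 mice or more out of 7. These 24 are part of 16959 genes that passed the same filter, out of 21154 genes with a probe.

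All mice were males on standard diet, labelled C57BL/6, and carried floxed alleles of Cnr1, the gene of cannabinoid receptor 1 (CB1R). The β-CB1R−/− group also had the MIP-Cre/ERT transgene, a tamoxifen-inducible Cre driven by the mouse insulin promoter, and the β-CB1R+/+ littermates lacked it. Tamoxifen was given to both groups. No mice with the Cre transgene and intact Cnr1 were on the arrays, so the transgene and the deletion cannot be told apart. This description comes from the series title and the study's methods. The sample labels say only CB1 WT and CB1 KO, and their growth protocol names a whole-body CB1R knockout line and no floxed allele or Cre, so they do not settle that the deletion was restricted to beta cells. The groups are named here as in the title, and the sample labels give no age. Each mouse gave 1 one-colour Agilent array, except that β-CB1R−/− mouse 2 was hybridised a second time and its 2 arrays were averaged. All 8 arrays were on 1 slide, with β-CB1R+/+ arrays on one side and β-CB1R−/− arrays on the other, so position and genotype cannot be told apart.

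Between 33304 and 39988 of 55681 probes were well above background on an array, and no spot was saturated. The transcripts of beta cells were present in every mouse, with a log2 summed intensity of 12 beta cell genes between 11.7 and 12.4. Cnr1 was lower in β-CB1R−/− islets by 1.97 ± 0.33 (log2, SE from limma), with no overlap between the groups, an exact permutation p of 0.0286 and a limma adjusted p of 0.193. That permutation p is the smallest that 4 against 3 mice allow. All intensities below are log2 values relative to the 75th percentile of the array, so 0 is that percentile. The level of one probe cannot be set against that of another, and a bulk array cannot tell fewer cells of a type from less RNA per cell.

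Chemokines are grouped by the spacing of their first cysteines into CC, CXC, CX3C and C families, and act on G protein-coupled receptors of the target leucocyte. Some are made constantly and guide homing, such as Cxcl12 and Ccl19. Others are switched on by NFκB, AP-1 or interferon signals in stressed islets and in their resident macrophages. In islets they are known for drawing monocytes, T cells and neutrophils into inflamed tissue. The genes sit in clusters, so that Ccl3 and Ccl4, Ccl6 and Ccl9, and Cxcl9 and Cxcl10 are neighbours.

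The promoter windows of 5 members are shown because the values below turn on them: Ccl3 and Cxcl1 were high in the mice of high Fos, Ccl6 and Cxcl10 had the only unadjusted p-values under 0.05, and Ccl9 is the neighbour of Ccl6. Each window runs from 250 bases before to 50 bases after the RefSeq start in build GRCm38.p6 and is written 5′ to 3′ on the strand of the gene. Ccl3 lies at chr11:83649329-83649628 (minus strand), Cxcl1 at chr5:90890995-90891294 (plus strand), Cxcl10 at chr5:92348840-92349139 (minus strand), Ccl6 at chr11:83593038-83593337 (minus strand) and Ccl9 at chr11:83578587-83578886 (minus strand). Capitals mark matches on either strand to TGANTCA (the AP-1 motif bound by Fos and Jun proteins), TGACGTCA (the cAMP response element), GGNNTTTCC (a κB-type motif) or GAAANNGAA (an interferon-stimulated response type motif).

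Ccl3: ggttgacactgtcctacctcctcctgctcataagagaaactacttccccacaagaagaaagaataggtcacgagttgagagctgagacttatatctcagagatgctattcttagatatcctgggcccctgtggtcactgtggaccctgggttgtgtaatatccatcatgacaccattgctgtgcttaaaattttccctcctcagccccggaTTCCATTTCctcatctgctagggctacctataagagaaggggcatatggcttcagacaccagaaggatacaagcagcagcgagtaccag

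Cxcl1: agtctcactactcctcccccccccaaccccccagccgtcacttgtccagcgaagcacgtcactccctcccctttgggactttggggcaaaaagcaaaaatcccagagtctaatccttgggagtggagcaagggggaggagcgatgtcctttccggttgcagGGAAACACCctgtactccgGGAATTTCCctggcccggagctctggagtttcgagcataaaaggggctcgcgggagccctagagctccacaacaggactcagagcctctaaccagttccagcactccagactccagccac

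Cxcl10: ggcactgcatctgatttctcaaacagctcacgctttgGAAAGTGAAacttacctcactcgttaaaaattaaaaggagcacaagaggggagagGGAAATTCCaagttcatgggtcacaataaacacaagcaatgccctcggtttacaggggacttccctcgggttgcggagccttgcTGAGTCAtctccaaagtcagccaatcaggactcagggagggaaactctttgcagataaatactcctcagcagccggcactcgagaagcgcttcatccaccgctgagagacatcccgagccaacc

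Ccl6: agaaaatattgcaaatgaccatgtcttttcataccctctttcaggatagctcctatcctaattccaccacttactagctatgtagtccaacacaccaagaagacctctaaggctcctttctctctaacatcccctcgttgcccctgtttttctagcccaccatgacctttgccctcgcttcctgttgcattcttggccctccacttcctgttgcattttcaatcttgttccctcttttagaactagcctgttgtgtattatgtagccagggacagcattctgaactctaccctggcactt

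Ccl9: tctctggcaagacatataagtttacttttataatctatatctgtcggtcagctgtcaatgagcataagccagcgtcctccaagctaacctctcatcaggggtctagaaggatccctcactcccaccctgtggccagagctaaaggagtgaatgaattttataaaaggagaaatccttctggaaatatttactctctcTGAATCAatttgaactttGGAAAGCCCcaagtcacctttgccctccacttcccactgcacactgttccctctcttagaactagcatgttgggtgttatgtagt

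The Cxcl10 window held an AP-1 match, a κB-type match and an interferon-type match. In Cxcl1 both matches were of the κB type, in Ccl3 the only match was of the interferon type, and Ccl9 held 1 AP-1 and 1 κB-type match. None of the motifs was matched in the Ccl6 window. Of the 24 members compared, 17 had a window in the RefSeq table, and none was found for Ccl4. An AP-1 match was present in 5 of the 17, a κB-type match in 4, an interferon-type match in 5 and a cAMP element in 0. Over 32544 windows of all genes the shares were 7.79%, 5.83%, 8.53% and 1.80%. A member was counted when any of its windows held a match, while these shares are per window, so the measures are not alike. These are matches of letters only, and no binding was measured.

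**Figure D1:**
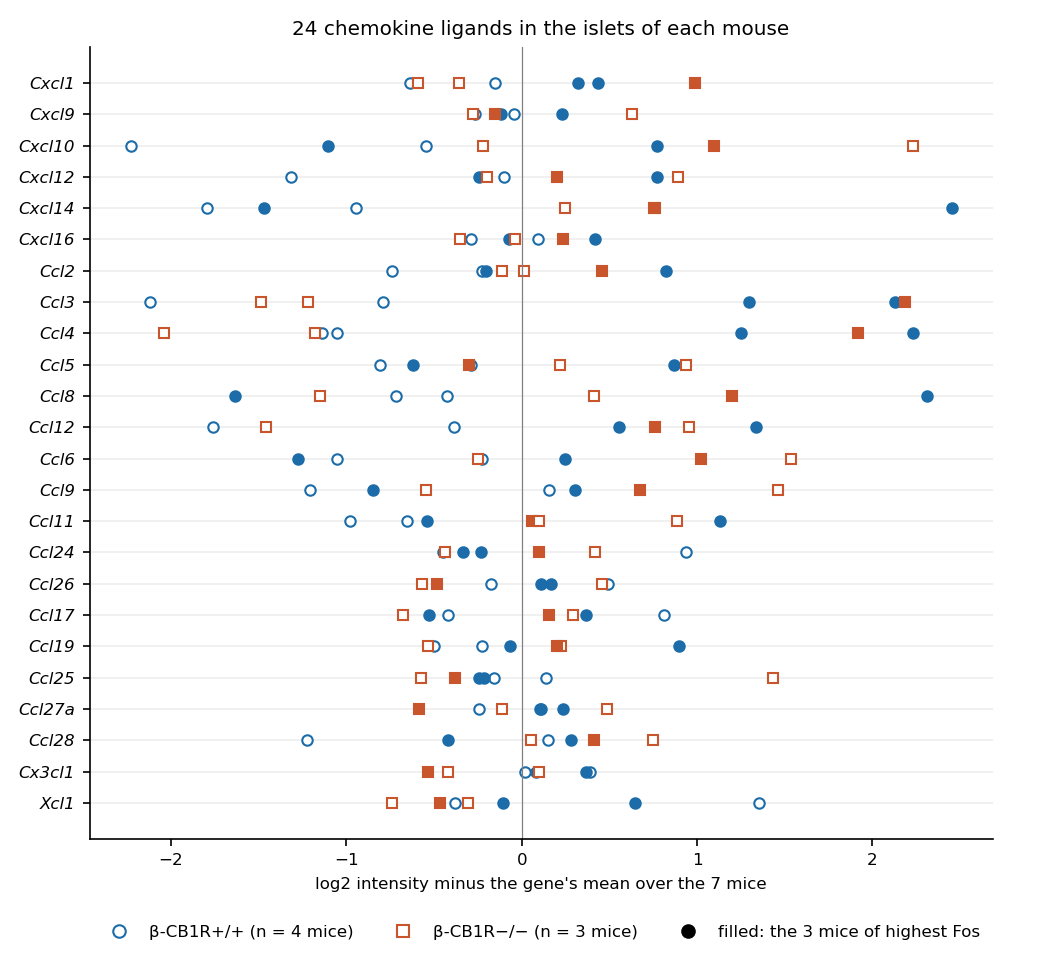
Each row is a chemokine ligand and each point a mouse, plotted as log2 intensity minus the mean of that gene over the 7 mice. Circles are β-CB1R+/+ and squares β-CB1R−/− mice, and filled symbols are the 3 mice of highest Fos; Ccl3 and Ccl4 show filled symbols far to the right of the open ones, while circles and squares overlap in every row.

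No chemokine ligand differed between the genotypes after adjustment. Of the 24 members, 0 had a limma adjusted p under 0.05, against 0.11% of all 39165 probes compared, and the smallest adjusted p of a member was 0.999. At an unadjusted p under 0.05 there were 2, Ccl6 and Cxcl10, where 3.59% of all probes reached that level. Cxcl10 passed the filter mainly through β-CB1R−/− mice and was at background on most β-CB1R+/+ arrays, so its place in this count rests in part on the filter. The methods' t-test called 0 members with or without adjustment. The groups did not overlap in 0 of the 24, and in 4.11% of all probes. The mean was higher in β-CB1R−/− islets for 15 members and lower for 9, with 47.7% of all probes on the higher side, and the median log2 difference was 0.13, beside -0.02 over all probes.

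**Figure D2:**
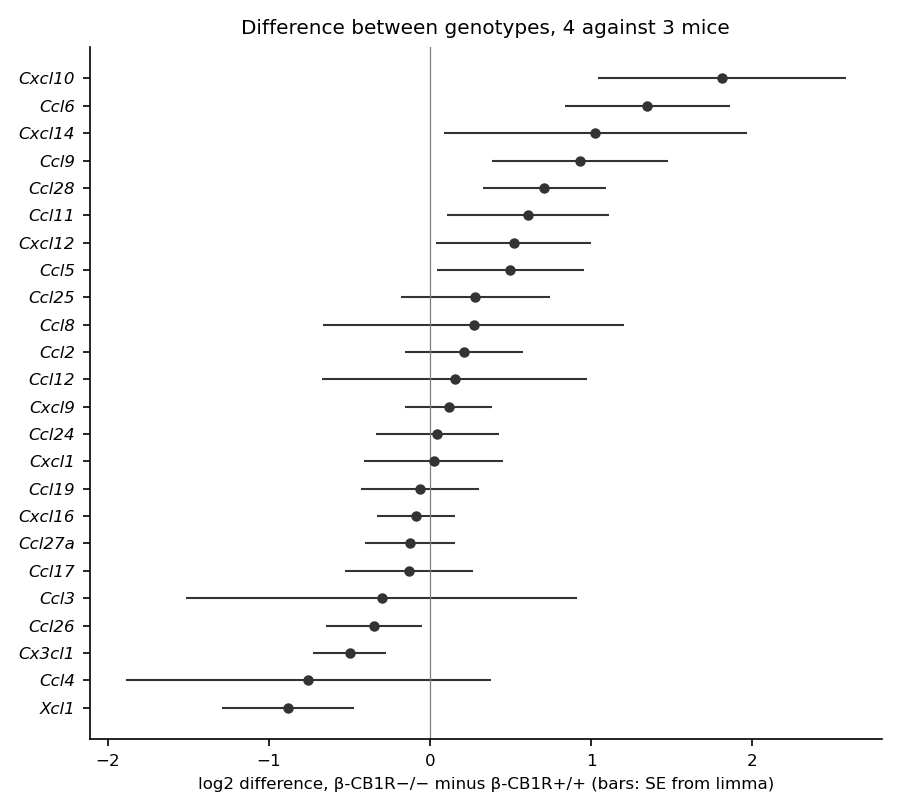
Log2 difference of each of 24 chemokine ligands, β-CB1R−/− minus β-CB1R+/+, with SE from limma (4 against 3 mice). Cxcl10 (1.81) and Ccl6 (1.35) lie furthest to the right, Xcl1 (-0.88) and Ccl4 (-0.76) furthest to the left, and the bars of Ccl3, Ccl4, Cxcl14 and Ccl8 are the widest. Cxcl10 was well above background on 1 β-CB1R+/+ array and Xcl1 on 1 β-CB1R−/− array, so these 2 sizes are not well measured. With the normexp background correction they were 0.84 and -0.37.

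Single mice lay far apart for many members. Over the 7 mice the median range of a member was 1.99 on the log2 scale, beside 1.1 over all probes, and 12 of 24 members ranged over more than 2, as did 14% of all probes. For the 14 members well above background on all 8 arrays the median range was 1.65 and 5 ranged over more than 2, beside 0.92 and 6.18% for the 28180 probes so detected. The other 10 members were at background in some mice, where a range is not well measured. The 2 arrays of β-CB1R−/− mouse 2 differed by a median of 0.13 for the members and by over 1 for 2 of them, Ccl17 and Xcl1. For the other 22 members the repeat arrays lay within 1 of each other.

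Ccl3 and Ccl4, the macrophage inflammatory proteins, were high in the 3 mice of high Fos, which belong to both genotypes. Fos encodes an immediate-early AP-1 subunit that is induced within minutes of cell stimulation. Its level was -1.59 in β-CB1R+/+ mouse 2, -0.82 in mouse 1, 6.31 in mouse 3 and 5.34 in mouse 4. In β-CB1R−/− mice it was 0.75, 5.84 and -0.71 in mice 1, 2 and 3. The values formed 2 clusters with a gap of 4.59 between them. The whole list of 18 immediate-early genes, which includes Fos, had a log2 summed intensity of 8.14 to 9.18 in the 3 mice of high Fos. In the other 4 it was 4.95 to 5.45. Fos was read from the same RNA, so the 2 clusters were not compared by a test and no correlation is given across them. Fos entered the genotype comparison as a covariate and in a fit without the 3 mice of high Fos, both as alternatives.

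The Ccl3 level was -3.19, -4.51, -0.26 and -1.09 in β-CB1R+/+ mice 1 to 4 and -3.61, -0.21 and -3.88 in β-CB1R−/− mice 1 to 3. Its probe was well above background on 2 β-CB1R+/+ arrays and on 2 β-CB1R−/− arrays, all of them from the 3 mice of high Fos, so its levels in the other 4 mice are at background. For Ccl4 the levels were -2.99, -3.08, 0.29 and -0.69 in β-CB1R+/+ mice and -3.98, -0.02 and -3.12 in β-CB1R−/− mice, and it was well above background on 3 arrays of each genotype, which leaves mouse 1 of each at background. The 3 mice of high Fos, of both genotypes, were above the other 4 for both genes. The lowest of them was at -1.09 for Ccl3 and -0.69 for Ccl4, and the highest readings of the other 4, at background, were -3.19 and -2.99. The repeat arrays of β-CB1R−/− mouse 2 read -0.26 and -0.15 for Ccl3, and -0.14 and 0.11 for Ccl4.

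Cxcl1, a ligand of the neutrophil receptor CXCR2, had the same order with a smaller range. It read -2.82, -3.31, -2.35 and -2.24 in β-CB1R+/+ mice and -3.03, -1.69 and -3.26 in β-CB1R−/− mice. The lowest of the mice of high Fos was at -2.35 and the highest of the others at -2.82. These 3 genes were the members in which the 3 mice of high Fos all lay above the other 4, an order found in 1.15% of all probes. Ccl3 passed the filter only with those 3 mice, so the count rests in part on the filter.

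Between genotypes the log2 difference was -0.30 ± 1.21 for Ccl3, -0.76 ± 1.13 for Ccl4 and 0.02 ± 0.43 for Cxcl1 (SE from limma, 4 against 3 mice). With log2 Fos as a covariate the differences were -0.12 ± 0.34, -0.60 ± 0.45 and 0.08 ± 0.25. Among the 4 mice of low Fos the genotypes overlapped for Ccl3, at levels that are all at background. For Ccl4 they read -2.99 and -3.08 in β-CB1R+/+ and -3.98 and -3.12 in β-CB1R−/− mice, with mouse 1 of each genotype at background, so no order is read from them. Only 1 β-CB1R−/− mouse had high Fos, so no test is given within that level. A fit of the 4 mice of low Fos is given only as an alternative.

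**Figure D3:**
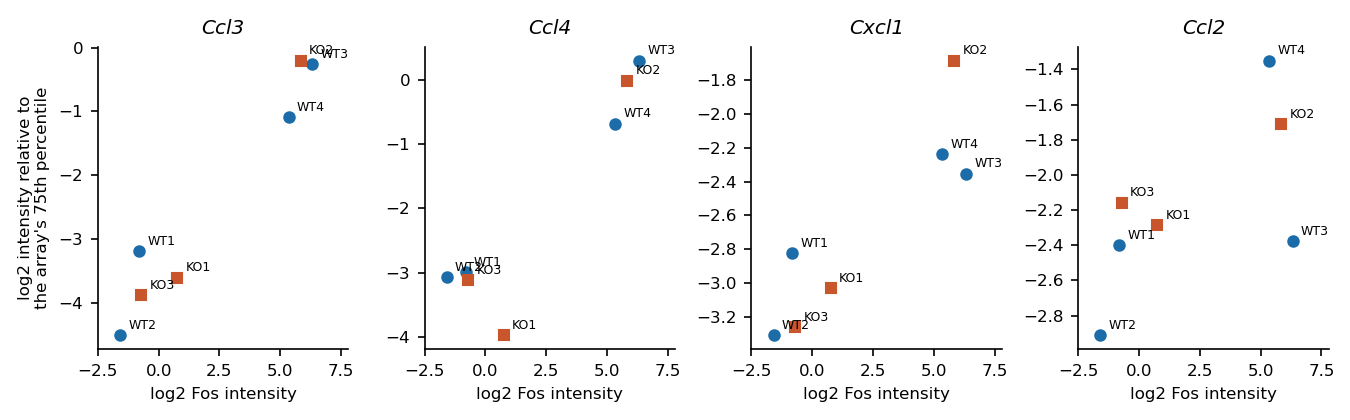
Log2 intensity of Ccl3, Ccl4, Cxcl1 and Ccl2 (vertical axis, relative to the 75th percentile of the array) against log2 Fos (horizontal axis) for each mouse; circles (WT) are β-CB1R+/+ and squares (KO) β-CB1R−/−. Ccl3, Ccl4 and Cxcl1 are higher in WT3, WT4 and KO2 than in the other 4 mice, and for Ccl2 WT3 lies among the mice of low Fos.

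Ccl2 did not show this order. This ligand, the main attractant of CCR2-bearing monocytes, read -2.40, -2.91, -2.38 and -1.35 in β-CB1R+/+ mice and -2.29, -1.71 and -2.16 in β-CB1R−/− mice, with β-CB1R+/+ mouse 3 among the lower values. Its log2 difference was 0.21 ± 0.37. Among the other members that are ligands of CXCR2, Cxcl2 was well above background on 1 β-CB1R−/− array and Cxcl5 on 1 β-CB1R−/− array. Cxcl3 and Cxcl15 were so on none. In the list of 18 NFκB response genes, 14 passed the filter, none had a limma p under 0.05 unadjusted or adjusted, and the median log2 difference was 0.08. The 3 mice of high Fos were all above the other 4 for 3 of the 14, Nfkbia, Nfkbiz and Il1b, beside 1.15% of all probes. For Il1b the lowest of the 3 mice read -2.07 and the highest of the other 4 read -2.12. One repeat array of β-CB1R−/− mouse 2 read -2.18 for Il1b, so the order did not hold on that array. The same order was found for 17 of the 18 immediate-early genes. Fos is 1 of these, and its order is fixed because it defined the 3 mice.

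Ccl6 and Ccl9, neighbouring genes made mainly by myeloid cells and acting on CCR1, were at their highest in β-CB1R−/− mice 2 and 3. The Ccl6 level was -1.02, -1.85, -2.07 and -0.55 in β-CB1R+/+ mice and -1.04, 0.23 and 0.74 in β-CB1R−/− mice, so β-CB1R−/− mouse 1 lay within the β-CB1R+/+ range. The log2 difference was 1.35 ± 0.51, a 2.54-fold higher mean, with an unadjusted limma p of 0.030, an adjusted p of 0.999 and an exact permutation p of 0.143. For Ccl9 the levels were -2.01, -3.37, -3.01 and -1.86 in β-CB1R+/+ mice and -2.71, -1.49 and -0.71 in β-CB1R−/− mice, and the log2 difference was 0.93 ± 0.55, with 0.46 when β-CB1R−/− mouse 3 was left out and 1.47 without β-CB1R−/− mouse 1. Both probes were well above background on all 8 arrays.

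The macrophage markers moved partly with these ligands, and their part in the result was not tested. All 17 passed the filter, 12 were higher and 5 lower in β-CB1R−/− islets with a median log2 difference of 0.23, and none passed the adjusted threshold. Their log2 summed intensity, led by Itgam, was 6.05 to 6.48 in β-CB1R+/+ mice and 6.54 to 6.82 in β-CB1R−/− mice. That sum is weighted to the brightest probe, and Itgam itself overlapped between the groups. The median over all 17 markers, each taken relative to its own mean over the mice, also overlapped, at -0.30 to 0.13 and -0.21 to 0.56, and 1 marker, C1qb, had groups that did not overlap. Lyz2, the macrophage lysozyme, had its highest levels in the same mice as Ccl6, at 0.08 in β-CB1R−/− mouse 3 and -0.81 in mouse 2 against -2.49 to -1.43 in the other 5. Mrc1, the mannose receptor, was the 1 marker with an unadjusted limma p under 0.05, and its highest value was in β-CB1R+/+ mouse 4. It was well above background on 1 of 4 β-CB1R+/+ and all 4 β-CB1R−/− arrays, so it passed the filter mainly through β-CB1R−/− mice and no size is given. Adgre1, a surface marker of tissue macrophages, differed by 0.04 ± 0.30, and Ccr1, a receptor of both ligands, did not pass the filter. Adgre1 and Fcer1g, another marker of the list, had their lowest values in β-CB1R−/− mouse 2, at -1.57 and 1.17. Of the 17 markers, 5 had their highest value in that mouse and 9 in β-CB1R−/− mouse 3. The median over the 17 was -0.06 in β-CB1R−/− mouse 2 and 0.56 in mouse 3, beside 0.13 in β-CB1R+/+ mouse 4.

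Cxcl10, the interferon-induced attractant of CXCR3-bearing T cells, was near background in most β-CB1R+/+ mice. It read -4.88, -3.20, -3.76 and -1.88 in β-CB1R+/+ mice and -2.88, -1.55 and -0.42 in β-CB1R−/− mice. Only 1 of 4 β-CB1R+/+ arrays was well above background, beside all 4 β-CB1R−/− arrays, so the probe passed the filter mainly through β-CB1R−/− mice. As read, the log2 difference was 1.81 ± 0.77, a size not well measured because most β-CB1R+/+ values are at background. The unadjusted limma p of 0.046, the adjusted p of 0.999 and the exact permutation p of 0.114 carry the same limit. With the normexp background correction, which adds an offset to dim signals, it was 0.84. The groups overlapped, since β-CB1R+/+ mouse 4 lay above β-CB1R−/− mouse 1.

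Cxcl9, which shares the receptor CXCR3, differed by 0.11 ± 0.27 on its brighter probe, with all mice between -2.79 and -1.89. Its second probe was above background on no array, so the probes disagree on whether Cxcl9 was detectable. The receptor Cxcr3 differed by 0.43 ± 0.38. Of 19 interferon response genes 17 were compared, 3 of them higher and 14 lower in β-CB1R−/− islets with a median log2 difference of -0.32, the opposite side from Cxcl10, and 13 of the 17 had their highest value in β-CB1R+/+ mouse 4. Bst2, an antiviral membrane protein, was the 1 with an unadjusted limma p under 0.05, at -0.95 ± 0.30 with an adjusted p of 0.999. All β-CB1R−/− mice lay below the β-CB1R+/+ mice for Bst2, with an exact permutation p of 0.0286. In all, 10 T cell markers were compared, 5 higher and 5 lower, with a median log2 difference of 0.04. Of the 10, 2 had an unadjusted limma p under 0.05, beside 3.59% of all probes, and none passed the adjusted threshold.

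**Figure D4:**
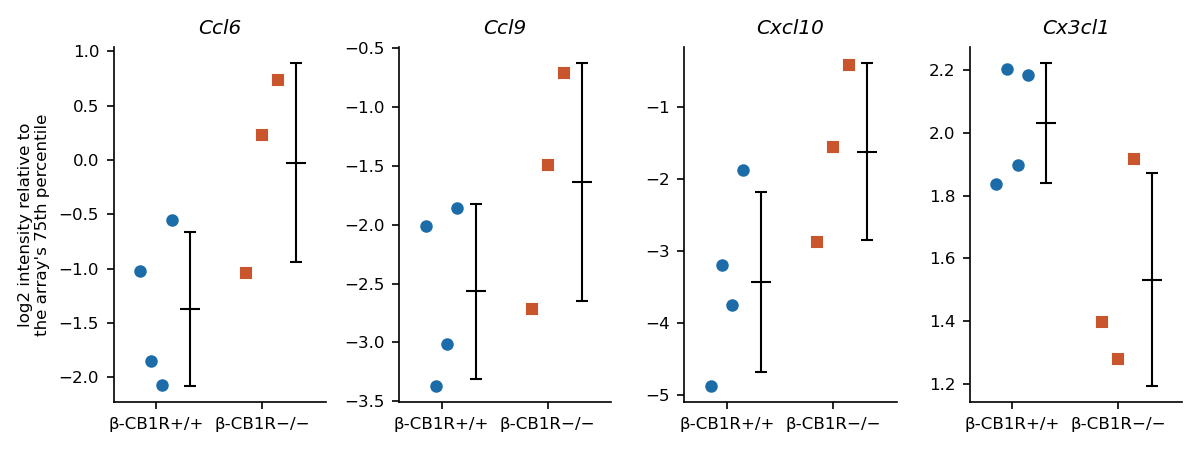
Log2 intensity of Ccl6, Ccl9, Cxcl10 and Cx3cl1 relative to the 75th percentile of the array in each mouse, with the mean and SD of the group beside the points (4 β-CB1R+/+ and 3 β-CB1R−/− mice). In each panel at least 1 β-CB1R−/− mouse lies within the β-CB1R+/+ range.

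Several ligands had their highest value in β-CB1R+/+ mouse 4. Cxcl14, a constitutive chemokine of epithelia and fibroblasts, read -3.13, -2.28, -2.81 and 1.11 in β-CB1R+/+ mice and -0.58, -0.58 and -1.09 in β-CB1R−/− mice. The log2 difference was 1.03 ± 0.94 over all mice, and 0.41 with normexp. Without β-CB1R+/+ mouse 4 it was 1.99 ± 0.30 with a limma adjusted p of 0.198, and all 3 β-CB1R−/− mice then lay above the remaining β-CB1R+/+ mice. Ccl8, a CC ligand of the monocyte chemoattractant group, read -2.55, -2.84, -3.76 and 0.19 in β-CB1R+/+ mice and -3.27, -0.92 and -1.71 in β-CB1R−/− mice, with a log2 difference of 0.27 ± 0.93.

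Ccl12, a second ligand of CCR2, read -4.42, -5.79, -3.48 and -2.69 in β-CB1R+/+ mice and -5.49, -3.27 and -3.07 in β-CB1R−/− mice, and 3 of its 8 arrays were well above background. Ccl11, the eosinophil attractant eotaxin, had its highest value in β-CB1R+/+ mouse 4 at -0.97 and its next in β-CB1R−/− mouse 1 at -1.22, with a log2 difference of 0.61 ± 0.50, or 0.27 with normexp. Ccl19, a ligand of the lymph node homing receptor CCR7, also peaked in β-CB1R+/+ mouse 4 at -0.72 with the others between -2.15 and -1.39, and all 3 of its probes had that mouse highest. In all, β-CB1R+/+ mouse 4 was the highest of the 7 mice for 7 members, Cxcl14, Cxcl16, Ccl2, Ccl8, Ccl12, Ccl11 and Ccl19, and for 4.78% of all probes.

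Of the 13 stellate cell and fibroblast markers 11 also had their highest value in that mouse, all but Rgs5 and Des, and their part in these values was not tested. Their log2 summed intensity, led by Dcn, was 3.62, 3.19, 3.82 and 6.30 in β-CB1R+/+ mice 1 to 4 and 4.71, 5.16 and 4.50 in β-CB1R−/− mice 1 to 3. The 3 lowest sums were those of β-CB1R+/+ mice 1, 2 and 3, as were the 3 lowest levels of Cxcl14. Of the 13, 9 were higher and 4 lower in β-CB1R−/− islets with a median log2 difference of 0.60, and none passed the adjusted or the unadjusted threshold. Of 12 endothelial markers 9 also had their highest value in β-CB1R+/+ mouse 4.

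Cxcl12, the ligand of CXCR4 made by stromal cells, read 0.49, -0.73, 0.34 and 1.36 in β-CB1R+/+ mice and 1.48, 0.79 and 0.39 in β-CB1R−/− mice, a log2 difference of 0.52 ± 0.48. It was 0.15 without β-CB1R+/+ mouse 2, 0.22 without β-CB1R−/− mouse 1 and 0.85 without β-CB1R+/+ mouse 4. A second probe for other transcripts of the gene gave 0.45 ± 0.64 and had its highest value in β-CB1R+/+ mouse 4. The receptors Cxcr4 and Ackr3 differed by 0.31 ± 0.21 and 0.30 ± 0.46. Cxcl16, a membrane-bound ligand of CXCR6, was among the steadiest members, at -1.17, -0.79, -0.95 and -0.46 in β-CB1R+/+ mice and -1.23, -0.64 and -0.92 in β-CB1R−/− mice. Its log2 difference was -0.09 ± 0.24.

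**Figure D5:**
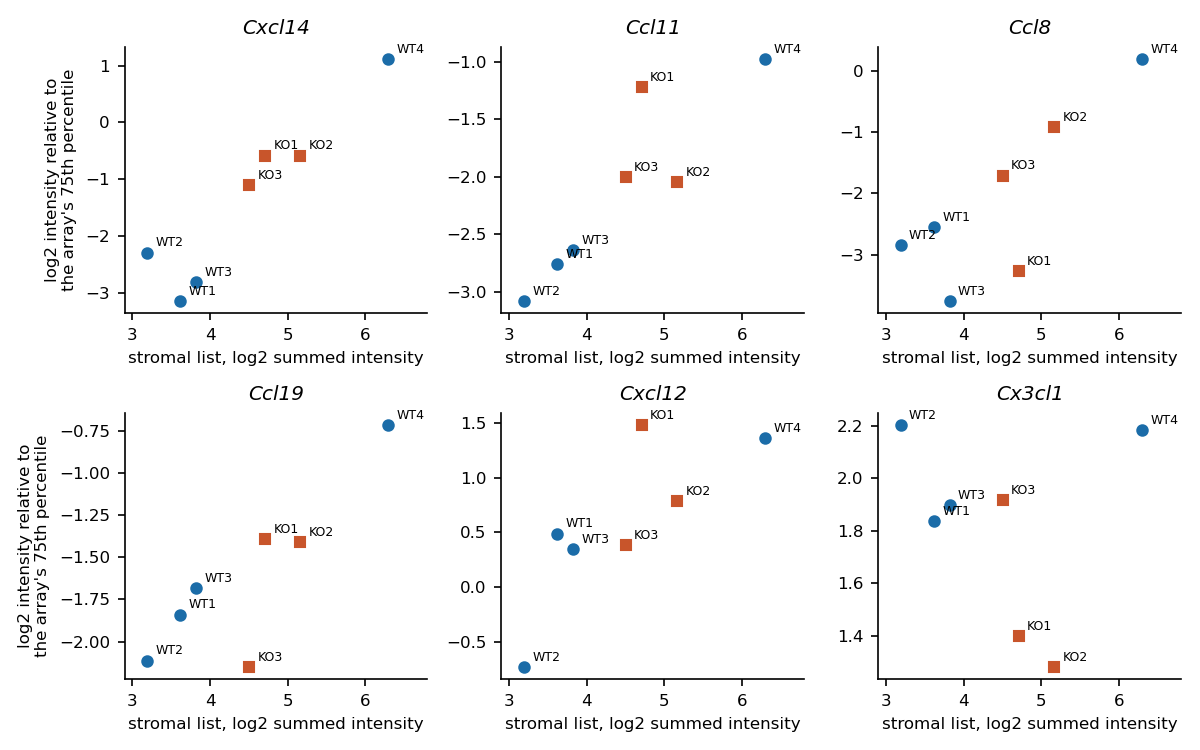
Log2 intensity of 6 ligands (vertical axis, relative to the 75th percentile of the array) against the log2 summed intensity of 13 stellate cell and fibroblast markers (horizontal axis) in each mouse; circles (WT) are β-CB1R+/+ and squares (KO) β-CB1R−/−. WT4, with the highest marker sum at 6.30, has the highest Cxcl14, Ccl11, Ccl8 and Ccl19, and Cx3cl1 shows no such order.

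Cx3cl1, or fractalkine, is a membrane-tethered chemokine whose receptor CX3CR1 marks many tissue macrophages. It read 1.84, 2.20, 1.90 and 2.19 in β-CB1R+/+ mice and 1.40, 1.28 and 1.92 in β-CB1R−/− mice, and was well above background on all 8 arrays. The log2 difference was -0.50 ± 0.23, with an unadjusted limma p of 0.059, an adjusted p of 0.999 and an exact permutation p of 0.114. Only β-CB1R−/− mouse 3 overlapped the β-CB1R+/+ mice. Its direction was the same in all 20 other settings, between -0.69 and -0.36. Cx3cr1, its receptor, was at 0.94 in β-CB1R−/− mouse 3 and at -0.53 to 0.24 in the other mice.

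Ccl5, a chemokine made by T cells and macrophages, read -1.90, -2.41, -2.23 and -0.73 in β-CB1R+/+ mice and -0.67, -1.90 and -1.39 in β-CB1R−/− mice, a log2 difference of 0.50 ± 0.46, with 0.17 when β-CB1R−/− mouse 1 was left out. Xcl1, the single C family ligand and a product of T and natural killer cells, differed by -0.88 ± 0.41, or by -0.37 with normexp. It was well above background on 3 β-CB1R+/+ arrays and 1 β-CB1R−/− array, so it passed the filter mainly through β-CB1R+/+ mice and its size is not well measured. The repeat arrays of Xcl1 read -3.15 and -4.78. Of 23 chemokine receptor genes 17 were compared, 8 higher and 9 lower in β-CB1R−/− islets, none with a limma p under 0.05 unadjusted or adjusted, and with a median log2 difference of -0.00.

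The remaining ligands belong to skin, gut, lymphoid tissue and eosinophils. Ccl28, a mucosal ligand of CCR10, differed by 0.71 ± 0.38, Ccl25, the gut homing ligand of CCR9, by 0.28 ± 0.46 and Ccl19 by -0.06 ± 0.37. For Ccl25 the mean rested on β-CB1R−/− mouse 1, at 1.66 against -0.35 to 0.36 in the other mice, and without that mouse the difference was -0.36. The second Ccl25 probe, with a different transcript, read -0.20 in that mouse and -0.20 in β-CB1R+/+ mouse 1, with the others between -2.34 and -1.35. Ccl17, a ligand of CCR4, differed by -0.13 ± 0.40 and the keratinocyte ligand Ccl27a by -0.12 ± 0.28. Ccl27a has near-identical copies in the genome, and its 3 probes gave -0.32, -0.12 and 0.10, so its value is uncertain. The CCR3 ligands Ccl24 and Ccl26 differed by 0.05 ± 0.38 and -0.35 ± 0.30, and Ccl12 by 0.15 ± 0.82.

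Of the 10 members with a probe that did not pass, Ccl1, Ccl20, Ccl22, Cxcl3, Cxcl15 and Cxcl17 were well above background on no array. Ccl7 was so on 1 β-CB1R+/+ array, and Cxcl2 and Cxcl5 on 1 β-CB1R−/− array each. Cxcl13, the B cell follicle chemokine, was well above background on 0 of 4 β-CB1R+/+ and 3 of 4 β-CB1R−/− arrays. Its levels were -3.58, -4.08, -4.32 and -5.11 in β-CB1R+/+ mice, where they are at background, and -3.70, -3.00 and -2.76 in β-CB1R−/− mice. The groups overlapped and the probe was not tested. Among the B cell and follicle genes 4 passed the filter, Cd79a and Ms4a1 did not, and the log2 sum of those that passed was -0.77 to -0.06 in β-CB1R+/+ and -0.52 to -0.37 in β-CB1R−/− mice. The 10 symbols with no matched probe were Ccl21a, Ccl21b, Ccl21c, Ccl21d, Ccl27b, Cxcl11, Ccl16-ps, Ccl19-ps1, Ccl19-ps2 and Ccl19-ps3.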

How the data were processed

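Islet RNA of 7 mice was measured on 8 one-colour arrays. The authors deposited, per the file headers, the intensity of each spot from Feature Extraction 11.5.1.1, background subtracted and detrended within an array. The authors also deposited Z scores of each array, a score used only as an alternative. For the array statistics the methods point to previous work, and Student's t test is their general test.

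Without flagged spots, log2 intensities were scaled to the 75th percentile on each array, replicate spots were averaged, and both arrays of β-CB1R−/− mouse 2 were merged into 1 replicate. Of 55681 probes, 39165 stood well above background in 3 or more of 7 mice. These were fitted together with limma 3.58.1 under R 4.3.3 (lmFit, eBayes, two-sided tests), and p-values were adjusted by Benjamini-Hochberg at 0.05. Accessions were matched to RefSeq symbols for 28026 probes, and each gene is given by its brightest probe. Exact permutation tests used the 35 splits of 4 and 3 mice. The script was tested on simulated data. The labels number the islet samples separately, and nothing more says how they were drawn, so p-values measure the spread between these samples, whose number limits the precision.

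The members and the gene lists were chosen with earlier results of these data known. Every member that passed is named. Values of each mouse are given for members with an unadjusted p under 0.05, for the 8 of largest range and for a fixed set of well-known ligands. The list genes Nfkbia, Nfkbiz, Il1b, Lyz2, Fcer1g, Mrc1, Adgre1 and Bst2 were picked once the values had been seen. So were the single mouse values given for Ccl11, Ccl19, Ccl25 and Cxcl13. The lists cover 4 pathways (chemokine receptors, NFκB response, interferon response, immediate-early genes) and 13 cell types. For the lists whose median log2 difference is not given above, it was 0.28 for neutrophils (6 of 7 higher), -0.11 for platelets and -0.02 for endothelial cells. It was -0.20 for B cells and follicles (1 higher and 3 lower), -0.11 for lymphatic vessels and 0.25 for duct cells. It was 0.18 for acinar cells (19 of 20 higher), -0.13 for beta cells, -0.67 for alpha cells (7 of 8 lower) and -0.43 for delta and PP cells. Of the 8 alpha cell genes 5 had an unadjusted limma p under 0.05, beside 3.59% of all probes. The groups did not overlap for 3 of the 8, beside 4.11% of all probes. None of the genes of these lists passed the adjusted threshold.

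Alternatives were other background corrections, scalings, filters, probe rules and tests, the repeat arrays singly, Fos as a covariate, the replicate block and leaving out each mouse. Leaving out the 3 mice of high Fos was chosen after seeing the data. No slide or scan block could be fitted, since all arrays shared 1 slide and 1 scan run.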

Additional observations from a re-analysis of the deposited data

Results flagged for a closer look

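The level of Ccl24, a CCR3 ligand of eosinophils, was -1.92 in β-CB1R+/+ mouse 1 and -3.31 to -3.09 in the other 3 β-CB1R+/+ mice, a gap beyond the critical value of Dixon's test for 4 samples. The β-CB1R−/− mice read -2.44, -2.76 and -3.29. Of 24 such groups examined it was the 1 beyond the limit, where chance gives about 1.2.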

How the results depend on the processing

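No chemokine ligand passed the adjusted threshold under any of the 20 other settings, and the median log2 difference of the members stayed within 1 SD of the spread between mice, 0.37, of its value of 0.13. It was 0.02 to 0.29 under the other processings and -0.04 to 0.28 with 1 mouse left out. The number at an unadjusted p under 0.05 was 2, and was 0 with the methods' t-test, 1 with Fos as a covariate, 3 with normexp, quantile normalisation, no filter, array 2-2 alone, a variance trend or without the 3 mice of high Fos, and 0 to 6 with 1 mouse left out (0 without β-CB1R+/+ mouse 3 or β-CB1R−/− mouse 2, 1 without β-CB1R+/+ mouse 1 or 2 or β-CB1R−/− mouse 3, 4 without β-CB1R−/− mouse 1 and 6 without β-CB1R+/+ mouse 4). The same count over all probes was 1406, and 785 to 3817 with 1 mouse left out. Over all probes 43 passed the adjusted threshold, 0 with the methods' t-test, the replicate block or without the 3 mice of high Fos, 17 with Fos as a covariate, 23 with no filter, 24 with probes above background on all arrays and 0 to 42 with 1 mouse left out.

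The direction held in all settings for 11 of 24 members, and 13 changed sign in at least 1; the cause was not tested. With normexp the log2 difference was 0.068 for Ccl27a, -0.0079 for Cxcl9, -0.047 for Cxcl1, -0.049 for Ccl24 and -0.040 for Ccl12. It kept its sign but was smaller by over 1.5 times for Cxcl14 (0.41), Ccl5 (0.22), Ccl4 (-0.32), Ccl11 (0.27), Ccl8 (0.042), Ccl9 (0.50), Ccl2 (0.053), Cxcl10 (0.84), Ccl26 (-0.13), Ccl17 (-0.073) and Xcl1 (-0.37). Array 2-1 alone gave 0.060 for Ccl17, and array 2-2 alone -0.053 for Cxcl1 and -0.025 for Ccl24. Without the 3 mice of high Fos it was 0.26 for Ccl27a, 0.21 for Ccl19, 0.11 for Ccl3, -0.079 for Cxcl1 and -0.25 for Ccl24. With 1 mouse left out the ranges were -0.40 to 0.14 for Ccl27a, -0.36 to 0.65 for Ccl25, -0.23 to 0.064 for Cxcl16, -0.24 to 0.23 for Ccl19, -1.93 to 0.047 for Ccl4, -0.25 to 1.08 for Ccl8, -0.0092 to 0.51 for Ccl2, -1.48 to 0.37 for Ccl3, -0.17 to 0.29 for Cxcl9, -0.46 to 0.32 for Cxcl1, -0.15 to 0.36 for Ccl24, -0.33 to 0.17 for Ccl17 and -0.41 to 0.92 for Ccl12. For the members that kept their sign they were 0.15 to 0.85 for Cxcl12, 0.17 to 0.86 for Ccl5, 0.34 to 1.07 for Ccl11, 0.40 to 0.90 for Ccl28, 0.46 to 1.47 for Ccl9, 0.57 to 1.99 for Cxcl14, 0.96 to 1.86 for Ccl6, 1.21 to 2.44 for Cxcl10, -0.68 to -0.16 for Ccl26, -0.69 to -0.37 for Cx3cl1 and -1.14 to -0.56 for Xcl1.

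The replicate block, which leaves out β-CB1R+/+ mouse 4, gave a median of 0.24, 0 members past the adjusted threshold and 6 at an unadjusted p under 0.05, with 0.041 for Cxcl16, 0.23 for Ccl19, 0.090 for Ccl3 and -0.025 for Ccl24. The numbers do not pair the mice, since same-numbered mice deviated together with r of 0.42, -0.27 and -0.06. Dim signal limits Ccl3, Ccl12, Ccl17, Cxcl10 and Xcl1, each detected above background on 3 to 5 of 8 arrays.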
